A study of Mus musculus with 4 samples.

Results

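CD4 T cells that had switched on an interleukin-4 (IL-4) reporter were divided by their own transcripts into a follicular helper side and a type 2 helper side, and the rest of the transcriptome was compared between the sides within each of 3 mice. A cell was called Tfh-marked when it held at least 1 unique molecular identifier (UMI, a tag that counts 1 captured RNA molecule) of Cxcr5 or Bcl6, no more than 1 of Gata3 and 0 of Il13. A cell was called Th2-marked when it held at least 3 UMIs of Gata3 and 0 of both Cxcr5 and Bcl6. Of 3668 cells that passed the filters and could be given to a mouse, 729 (19.9%) were Tfh-marked and 742 (20.2%) were Th2-marked. Both sides together held 1471 of the 11602 cell barcodes of the series. The cells were thus chosen by their measured counts of Cxcr5, Bcl6, Gata3 and Il13. The levels of these 4 genes are therefore no result and are not reported.

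The series holds 2 sorts of T cells from the mediastinal lymph node, which drains the lung, each from 3 C57BL/6 mice on day 7 after an intranasal dose of 10 µg of extract of the mould Alternaria alternata with 25 µg of the protein antigen NP-OVA. The reporter sort came from 4GET mice, which make green fluorescent protein where the Il4 locus is active, and took TCRβ+ CD4+ CD44+ GFP+ cells. A second sort, of C57BL/6 mice, took TCRβ+ CD4+ CD44+ PD-1+ CXCR5+ cells and is called the Tfh sort here. All cells of both sorts were stimulated with the phorbol ester PMA and ionomycin for 30 minutes before capture, mice carried separate antibody hashtags, and each sort was 1 capture. No group was left unsensitised, so the sides are compared with each other and not with a resting state, and every reporter-sort cell had already passed a gate on the Il4 locus.

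Follicular helper T cells (Tfh cells) are known for CXCR5, a chemokine receptor that takes them into B cell follicles, for the repressor BCL6, and for help to B cells through IL-21, IL-4 and CD40 ligand. Type 2 helper cells (Th2 cells) depend on the transcription factor GATA3, make IL-4, IL-5 and IL-13, and leave the node for the airway, where they draw in eosinophils. Both kinds of cell can switch on the Il4 locus after allergen, so a reporter for IL-4 marks them together.

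The Tfh-marked cells were 207, 191 and 331 in mice 1, 2 and 3, and the Th2-marked cells were 254, 241 and 247. The sides differed in depth, which the rule itself favours, since it asks for several Gata3 UMIs on one side and for few on the other. The median was 6433 UMIs in Tfh-marked cells and 12474.5 in Th2-marked cells, and the median number of genes was 2074 against 2990.5. Cells with at least 3 UMIs of 6 cell-cycle genes made up 11.2% of Tfh-marked and 49.9% of Th2-marked cells. Summed over a mouse, a side held between 1495386 and 5009694 UMIs. Most results below are therefore given also for cells matched in total UMIs within each mouse (138, 128 and 131 cells a side in mice 1, 2 and 3), with median depths of 7679 to 8223 UMIs on the Tfh-marked side and 7826.5 to 8083 on the Th2-marked side. In these bulk sums, fewer cells that make a transcript and fewer copies per cell cannot be told apart.

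Known markers that the rule did not use were looked at first. Of 8 Tfh markers, all 8 were higher in Tfh-marked cells at an adjusted p under 0.05, and of 7 Th2 markers 6 were higher in Th2-marked cells, with Il17rb (log2 difference -0.26, adjusted p = 0.598) not past the threshold. Il5, 1 of these 6, is tied to the rule, since its Th2-marked counts came only from cells with Il13, which the Tfh-marked side excludes. At matched depth 5 of the 8 Tfh markers were still higher in Tfh-marked cells (Cd200, Tox2, Sostdc1, Izumo1r and Sh2d1a). Icos was then lower in them (-0.58, adjusted p = 1.98e-05), and Pdcd1 and Il21 did not pass. A UMI of any of 9 genes of other lineages was held by 9.47% of Tfh-marked and 19.4% of Th2-marked cells. Such a share rises with depth, which differed between the sides, and this one was not taken at equal depth. Summed B cell markers were at 218 to 514 CPM (counts scaled to a common library total) in Tfh-marked and 317 to 669 CPM in Th2-marked sums, and dendritic cell markers at 85.0 to 100.1 against 140 to 217 CPM. Granulocyte markers were at 0 on the Tfh-marked side and at most 2.98 CPM on the other. CD8 T cell markers summed to 19.3 to 25.4 CPM in Tfh-marked and 8.02 to 13.2 CPM in Th2-marked cells. Of these Cd8a, at 3.96, 6.09 and 5.79 against 0.482, 0.232 and 0.198 CPM, was higher in Tfh-marked cells (29 counts in 12 cells against 4 in 3, log2 difference 4.00, adjusted p = 1.91e-05) and was too low to test at matched depth. The part of other cells in the results below was not tested. Foxp3, the defining gene of regulatory T cells, had a UMI in 0.137% of Tfh-marked and 1.21% of Th2-marked cells.

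Across the transcriptome the sides differed widely. In edgeR's quasi-likelihood test with the mouse as a block, 2404 of 9346 tested genes (25.7%) were higher in Tfh-marked cells and 2370 (25.4%) were higher in Th2-marked cells at an adjusted p under 0.05. Of these, 892 and 760 differed by more than 1 on the log2 scale. At matched depth, with fewer cells, 554 of 7535 genes (7.35%) were higher in Tfh-marked and 736 (9.77%) in Th2-marked cells. Of the 4774 genes called in all cells, 4110 could be tested at matched depth, 3451 kept their sign, 1062 were called in the same direction and 31 in the opposite one. The median log2 difference of all tested genes was 0.03 in all cells and 0.01 at matched depth, where a positive value means higher in Tfh-marked cells. The members of any list below are to be read against these shares.

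**Figure D1:**
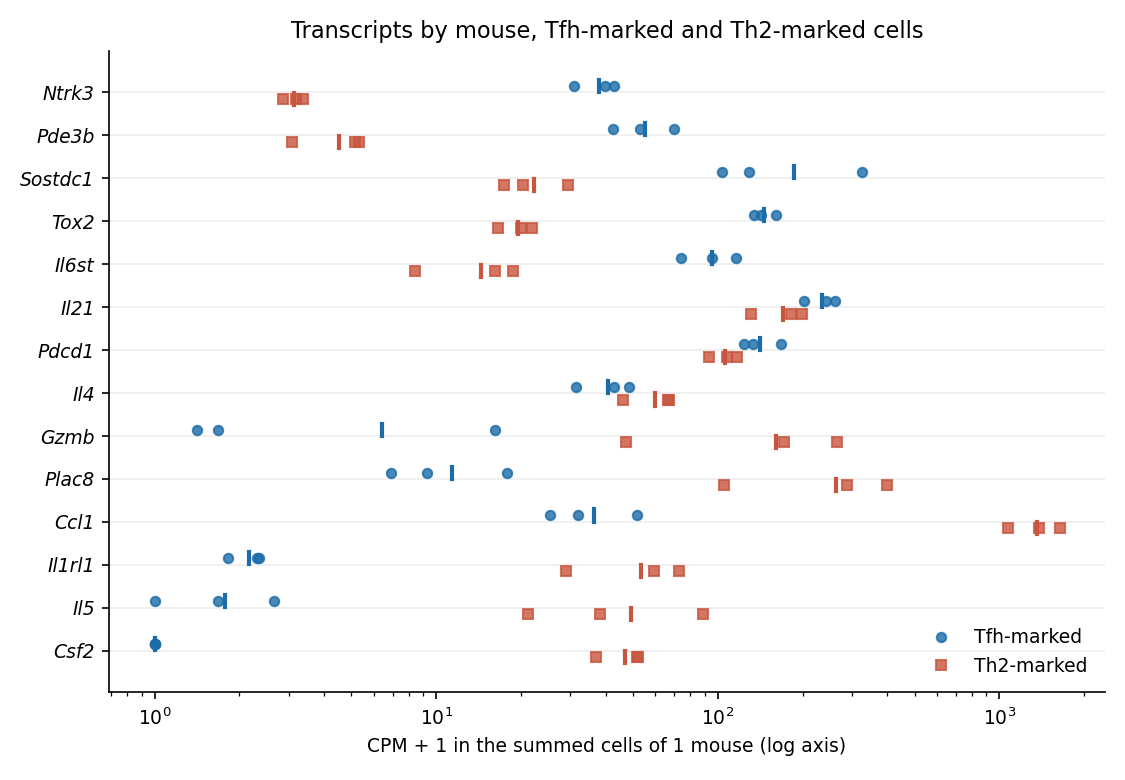
CPM plus 1 on a log axis for 14 genes in the summed cells of each mouse (circles, Tfh-marked; squares, Th2-marked; vertical bar, mean of 3 mice). Ntrk3 to Il6st are separated to the right on the Tfh-marked side, Gzmb to Csf2 on the Th2-marked side, while Il21, Pdcd1 and Il4 lie close together and Il4 overlaps.

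The 15 largest differences on the Th2-marked side were in Csf2, Ltb4r1, Il6, Il5, Il1rl1, Neb, Ccl1, Il17a, Gzmb, Hdc, Il3, Cysltr1, Ccr2, Pparg and Plac8. At matched depth 14 of these could be tested and all 14 were called in the same direction. The matched cells are a part of the cells that chose these genes, so this describes the effect of depth and is no independent support. Csf2 (the myeloid growth factor GM-CSF) had 0 counts in Tfh-marked cells of all 3 mice and 50.9, 51.2 and 36.0 CPM in Th2-marked cells of mice 1, 2 and 3. Set against a floor of 3 counts over the group, it was at least 80.1-fold higher in Th2-marked cells. A UMI of it was found in 85 Th2-marked cells (11.5%) and in 0 of 729 Tfh-marked cells, which allows a share of up to 0.412% of cells with a UMI, not of cells that express the gene. In B cells of the same capture the share with a UMI was 2.04%.

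Il5, the eosinophil growth factor at chr11:53720794-53725106, stood at 0, 0.677 and 1.65 CPM in Tfh-marked and at 87.8, 37.1 and 20.2 CPM in Th2-marked cells of mice 1, 2 and 3. Every Th2-marked sum lay above every Tfh-marked sum, and mouse 3 had the lowest Th2-marked value. The log2 difference was -5.49 (SE 0.41, adjusted p = 2.93e-08), and 11.2% of Th2-marked cells held a UMI of it against 0.412% of Tfh-marked cells. All Il5 counts of the Th2-marked side came from cells that also held Il13, which the rule keeps off the Tfh-marked side. The Il5 difference therefore rests on cells that the rule admitted to 1 side only. Il3, another growth factor of myeloid cells, was at 0.66, 4.74 and 0.827 CPM against 62.9, 64.9 and 42.5 CPM (log2 difference -4.85, SE 0.30, adjusted p = 3.66e-09). Il6 had 2 counts in Tfh-marked and 434 in Th2-marked cells, a ratio of 84.9 with a counting interval of 23.4 to 703.

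Il10, an inhibitory cytokine, was at 38.3, 58.2 and 53.4 CPM in Tfh-marked cells and at 501, 516 and 234 CPM in Th2-marked cells. The groups did not overlap (log2 difference -2.94, SE 0.19, adjusted p = 5.63e-09), and the difference at matched depth was -3.60. It was seen in 35.6% of Th2-marked cells, and in 12.1% of Tfh-marked cells against 11.4% of the B cells of the same capture, so its share in Tfh-marked cells was close to that of B cells. The 245 B cells had a median depth of 5007 UMIs and themselves held a Cd4 UMI in 16.7%. Whether the Il10 UMIs of Tfh-marked cells or B cells are background was not tested. Thinned to 4000 UMIs a cell, Il10 was found in 25.9% of Th2-marked, 7.82% of Tfh-marked and 7.69% of B cells.

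Ccl1, the ligand of the chemokine receptor CCR8, was the most abundant of these transcripts. It stood at 1634, 1387 and 1068 CPM in Th2-marked cells and at 50.8, 24.4 and 31.0 CPM in Tfh-marked cells (log2 difference -5.26, SE 0.13, adjusted p = 3.64e-13; -5.73 at matched depth). Its share of cells was 61.1% against 14.4%, and 17.6% of B cells held a UMI of it, so the Tfh-marked share did not exceed that of B cells. Areg, which encodes the growth factor amphiregulin, stood higher than Ccl1 on the Tfh-marked side and lower than Ccl1 on the Th2-marked side. It was at 367, 341 and 258 CPM in Tfh-marked and 1158, 886 and 612 CPM in Th2-marked cells (log2 difference -1.43, adjusted p = 7.54e-09; -2.02 at matched depth).

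Il1rl1 (chr1:40429570-40465415), the receptor for the epithelial alarmin IL-33, was at 1.32, 1.35 and 0.827 CPM in Tfh-marked and 71.6, 58.2 and 27.9 CPM in Th2-marked cells (log2 difference -5.40, SE 0.28, adjusted p = 6.55e-10). A UMI was present in 31.9% of Th2-marked, 0.823% of Tfh-marked and 2.04% of B cells. Ltb4r1, the receptor for leukotriene B4, was at 1.98, 1.35 and 1.24 CPM against 262, 212 and 108 CPM (log2 difference -6.89, SE 0.20, adjusted p = 1.59e-12). Among the 15 genes named for size on this side, it had the largest fitted difference of those with counts in every sum. Cysltr1, a receptor for cysteinyl leukotrienes, was at 0.66, 1.35 and 3.72 CPM against 73.5, 64.2 and 52.2 CPM (log2 difference -4.78, adjusted p = 3.08e-09; -4.93 at matched depth). Ccr2, a receptor for monocyte chemoattractants, was at 7.26, 4.06 and 2.07 CPM against 143, 107 and 64.7 CPM (log2 difference -4.58, adjusted p = 5.51e-11; -5.82 at matched depth).

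Among regulators and enzymes, Pparg, a nuclear receptor for lipids, was at 0.66, 3.38 and 3.72 CPM in Tfh-marked and 84.4, 73.2 and 47.5 CPM in Th2-marked cells (log2 difference -4.53, SE 0.28, adjusted p = 3.71e-09; -4.14 at matched depth). Prdm1, which encodes BLIMP-1, the repressor that opposes BCL6, was at 2.64, 4.06 and 2.90 CPM against 25.8, 23.2 and 18 CPM (log2 difference -2.77, adjusted p = 6.28e-07; -3.37 at matched depth). Plac8 was at 5.94, 16.9 and 8.27 CPM against 397, 288 and 104 CPM (log2 difference -4.52, adjusted p = 5.53e-10; -5.33 at matched depth). In all 3 of these genes no Th2-marked sum fell to the level of a Tfh-marked one, and mouse 3 had the lowest Th2-marked value.

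Several genes usually assigned to other lineages were also on the Th2-marked side. Hdc, the enzyme that makes histamine and a mast cell and basophil gene, was at 204, 142 and 54.6 CPM in Th2-marked cells and at 5.94, 1.35 and 4.55 CPM in Tfh-marked cells (log2 difference -4.86, adjusted p = 6.54e-10; -5.66 at matched depth). Of the 8 mast cell and basophil genes 4 had counts and 2 could be tested. Cd200r3 was at 0, 0.677 and 3.72 CPM in Tfh-marked and 14.5, 9.04 and 3.96 CPM in Th2-marked cells (log2 difference -2.14, adjusted p = 0.00711), and its adjusted p was 0.0501 without mouse 2 and 0.101 with DESeq2. Ms4a2, Fcer1a, Gata2 and Prss34, which define mast cells and basophils, were at 0 in all 6 sums, and Hdc made most of the 59.7 to 218 CPM of that list in Th2-marked cells. The list of type 2 innate lymphoid cell genes summed to 32.7 to 85.2 CPM in Th2-marked and 1.32 to 2.58 CPM in Tfh-marked cells, with counts in 4 of its 5 genes, of which Il1rl1 and Klrg1 could be tested. Gzmb, which encodes the cytotoxic protease granzyme B, was at 171, 264 and 46.3 CPM in Th2-marked cells and at 15.2, 0.677 and 0.414 CPM in Tfh-marked cells (log2 difference -4.91, SE 0.35, adjusted p = 1.61e-08). A UMI of Gzmb was held by 116 Th2-marked cells, and 1 cell held 328 of them. Il17a rested on fewer cells still, with 3 counts against 283 (ratio 36.9, counting interval 12.5 to 180), found in 13 Th2-marked cells of which 1 held 106. Neb had 3 counts against 320 (ratio 41.7, counting interval 14.2 to 203).

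The genes of the IL-2 response split. Il2ra, the high-affinity chain of the IL-2 receptor, was at 8.58, 6.77 and 17 CPM in Tfh-marked and 125, 123 and 112 CPM in Th2-marked cells (log2 difference -3.36, SE 0.20, adjusted p = 2.09e-09; -2.85 at matched depth). Cish, a feedback inhibitor that STAT5 induces, was at 29.0, 37.9 and 18.6 CPM against 161, 170 and 117 CPM (log2 difference -2.42, adjusted p = 6.88e-10; -2.56 at matched depth). Of the 15 IL-2 and STAT5 genes, all tested, 5 were higher in Th2-marked cells (Il2ra, Cish, Socs2, Osm and Lif), 6 were higher in Tfh-marked cells (Socs1, Socs3, Stat5a, Stat5b, Bcl2 and Pim2) and 4 did not pass. The median was 0.07. At matched depth 7 were higher in Th2-marked cells and 1, Bcl2, in Tfh-marked cells (median -0.20). Il7r, the receptor chain for IL-7, was at 8.58, 10.8 and 15.3 CPM against 88.3, 76.5 and 54.6 CPM (log2 difference -2.53, adjusted p = 9.73e-08; -3.61 at matched depth).

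The 15 largest differences on the Tfh-marked side (Ntrk3, H2-Q2, Pde3b, Padi4, Art2b, Nsg2, Fam101b, Coro2b, Sostdc1, Cebpa, Fam43a, Tox2, Slc26a11, Dennd2d and Il6st) were all called in the same direction at matched depth. Here too the matched cells are a part of those that chose the genes. Ntrk3, a neurotrophin receptor kinase at chr7:78175959-78738012, was at 38.9, 29.8 and 41.8 CPM in Tfh-marked and 2.17, 1.85 and 2.37 CPM in Th2-marked cells (log2 difference 4.09, SE 0.23, adjusted p = 1.31e-09; 2.66 at matched depth). Pde3b, a phosphodiesterase that breaks down cyclic AMP, was at 41.6, 52.1 and 68.7 CPM against 4.34, 2.09 and 4.15 CPM (log2 difference 3.93, SE 0.22, adjusted p = 1.31e-09; 2.91 at matched depth). Padi4, an enzyme that converts arginine to citrulline in proteins, was at 27.0, 16.2 and 34.3 CPM against 0.965, 0.463 and 4.15 CPM (log2 difference 3.74, adjusted p = 1.59e-07; 2.41 at matched depth). H2-Q2 had a log2 difference of 4.01 (2.67 at matched depth), but it belongs to a family of near-identical class I genes among which reads can be split, so its value is uncertain.

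Tox2 (chr2:163203125-163324170), a nuclear factor of the TOX family known from Tfh cells, was at 141, 160 and 134 CPM in Tfh-marked and 19.1, 15.5 and 21.0 CPM in Th2-marked cells. These values were tight on both sides (log2 difference 2.95, SE 0.13, adjusted p = 1.68e-10), and the difference was 2.34 at matched depth. Sostdc1 (chr12:36314139-36318452), a secreted inhibitor of BMP and Wnt signals, was more variable, at 129, 103 and 324 CPM against 19.3, 16.5 and 28.3 CPM (log2 difference 3.06, SE 0.15, adjusted p = 4.11e-10; 1.75 at matched depth). Mouse 3 was the highest of its side. Ascl2, a transcription factor known for inducing Cxcr5, was at 12.5, 12.2 and 26.5 CPM against 1.45, 0.232 and 1.98 CPM (log2 difference 3.77, SE 0.35, adjusted p = 3.20e-07; 2.81 at matched depth).

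Both chains of the IL-6 receptor, whose signal favours Tfh cells, were higher in Tfh-marked cells. Il6st (chr13:112464070-112510086), the shared signalling chain gp130, was at 94.3, 73.1 and 115 CPM in Tfh-marked and 15.2, 7.41 and 17.8 CPM in Th2-marked cells (log2 difference 2.82, SE 0.15, adjusted p = 6.88e-10; 1.36 at matched depth). Il6ra, the chain that binds IL-6, was at 98.9, 98.1 and 116 CPM against 22.4, 21.1 and 31.5 CPM (log2 difference 2.06, adjusted p = 2.53e-09; 0.81 at matched depth). Sh2d1a, which encodes the adaptor SAP needed for lasting contact with B cells, was at 447, 481 and 411 CPM against 127, 96.6 and 124 CPM (log2 difference 1.94, adjusted p = 1.31e-09; 1.28 at matched depth). Btla, an inhibitory receptor, was at 141, 175 and 144 CPM against 52.6, 41.9 and 63.7 CPM (log2 difference 1.53, adjusted p = 2.12e-07; 0.90 at matched depth). For each of these 4 genes the difference was smaller at matched depth and stayed past the threshold.

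Some Tfh-marked genes are better known elsewhere. Ikzf2, which encodes HELIOS, often used as a regulatory T cell marker, was at 154, 142 and 225 CPM in Tfh-marked and 34.2, 23.2 and 27.9 CPM in Th2-marked cells (log2 difference 2.61, adjusted p = 6.88e-10; 1.72 at matched depth), while Foxp3 had 2 and 20 counts. Cd160, an inhibitory receptor common on natural killer and natural killer T cells, was at 56.1, 35.2 and 42.2 CPM against 4.34, 9.27 and 5.94 CPM (log2 difference 2.76, adjusted p = 1.84e-07; 2.57 at matched depth). The 5 natural killer T genes summed to 36.1 to 56.7 CPM in Tfh-marked and 4.96 to 9.85 CPM in Th2-marked cells, of which Cd160 alone could be tested. Cd160 made most of these sums on both sides. In the Tfh sort the Cd160 difference was -0.07 (edgeR adjusted p = 0.965). Hif1a, the oxygen-regulated transcription factor, was at 435, 382 and 539 CPM against 195, 173 and 212 CPM (log2 difference 1.22, adjusted p = 1.94e-08; 0.86 at matched depth).

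The promoters of a few of these genes were read from the RefSeq table of build GRCm38.p6, as the 250 bases before the first listed start, 5′ to 3′ on the gene's strand. They are shown because GATA3, one of the genes that defines the sides, binds GATA letters, and they give the sequence context of 3 Th2-side genes and 1 Tfh-side gene. Capitals mark GATA motifs on either strand, which are AGATAA or the same letters with a G at the end, with a T at the start, or with both. Capitals also mark TCF motifs on either strand, which are CTTTGAA or the same letters with a T at the end. Il5 lies at chr11:53720544-53720793 (+), Il1rl1 at chr1:40429320-40429569 (+), Ccl1 at chr11:82179813-82180062 (-) and Tox2 at chr2:163202877-163203126 (+).
Il5: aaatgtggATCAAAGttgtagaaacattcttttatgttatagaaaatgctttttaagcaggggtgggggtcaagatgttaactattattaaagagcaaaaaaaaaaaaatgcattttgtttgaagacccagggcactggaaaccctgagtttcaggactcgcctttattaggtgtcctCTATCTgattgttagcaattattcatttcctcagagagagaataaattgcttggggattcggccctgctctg
Il1rl1: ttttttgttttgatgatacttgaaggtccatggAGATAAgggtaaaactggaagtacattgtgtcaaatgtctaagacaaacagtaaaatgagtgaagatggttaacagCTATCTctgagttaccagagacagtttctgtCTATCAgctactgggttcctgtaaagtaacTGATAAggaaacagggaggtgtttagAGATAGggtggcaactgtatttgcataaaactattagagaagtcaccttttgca
Ccl1: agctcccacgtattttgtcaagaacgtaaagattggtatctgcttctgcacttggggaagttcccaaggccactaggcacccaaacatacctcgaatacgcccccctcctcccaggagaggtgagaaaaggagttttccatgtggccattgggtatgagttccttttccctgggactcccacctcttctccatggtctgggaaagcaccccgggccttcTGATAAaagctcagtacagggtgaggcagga
Tox2: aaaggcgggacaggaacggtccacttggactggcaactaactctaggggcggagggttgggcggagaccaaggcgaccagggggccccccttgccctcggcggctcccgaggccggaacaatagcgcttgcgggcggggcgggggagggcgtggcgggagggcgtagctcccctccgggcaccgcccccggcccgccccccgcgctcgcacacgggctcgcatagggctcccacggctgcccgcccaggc
The Il5 window held 1 GATA motif, 72 bases before the start, and 1 TCF motif. The Il1rl1 window held 5 GATA motifs and the Ccl1 window 1, 31 bases before the start, while the Tox2 window held neither kind. Of the 15 largest Th2-side genes 13 were matched to a promoter and 8 of these (61.5%) held a GATA motif, against 3 of 10 matched (30.0%) on the Tfh side. Such a motif stood in 27.1% of all 27025 promoters of the table and in 16.4% of the promoters of all tested genes. Over the larger sets of genes with a called log2 difference above 1, the shares were 16.8% on the Th2 side (576 of 760 matched) and 16.3% on the Tfh side (668 of 892 matched), close to each other and to the tested genes. Among promoters not shown, Ltb4r1, Il17a, Gzmb, Pparg and Plac8 on the Th2 side held no GATA motif, and H2-Q2, Art2b and Fam43a on the Tfh side held one or more. TCF motifs stood in 3 of the 13 Th2-side and 0 of the 10 Tfh-side promoters, against 7.67% of all promoters and 5.49% of those of tested genes. In the larger called sets the TCF shares were 6.08% on the Th2 side and 6.44% on the Tfh side. A match is a description of letters and no evidence of binding.

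Il4 (chr11:53602982-53618669) was at 30.3, 47.4 and 41.8 CPM in Tfh-marked and 65.8, 66.0 and 44.9 CPM in Th2-marked cells of mice 1, 2 and 3. The groups overlapped, and the difference within mice was -0.52 (SE 0.16, adjusted p = 0.0124). Without mouse 1 it was -0.30 (adjusted p = 0.129), with DESeq2 its adjusted p was 0.0548, and at matched depth it was -1.38 (adjusted p = 4.28e-09). Il4 was found in 20.6% of Tfh-marked, 54.2% of Th2-marked and 7.35% of B cells, and after thinning to 4000 UMIs in 14%, 26.3% and 2.2%. The reporter allele places its cassette behind the Il4 coding sequence, and what part this has in the low Il4 counts of this sort was not tested. Every cell here had passed the GFP gate, so a cell without an Il4 UMI is not a cell without an active locus.

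Il21 (chr3:37222759-37232636), the cytokine Tfh cells are best known for, was at 241, 260 and 201 CPM in Tfh-marked and 198, 181 and 130 CPM in Th2-marked cells (log2 difference 0.48, SE 0.09, adjusted p = 5.20e-04). Although the groups did not overlap in all cells, the difference at matched depth was -0.26 (SE 0.10, adjusted p = 0.0633). Without cycling cells Il21 was called higher in Th2-marked cells, by -0.45 (adjusted p = 4.64e-04), and by -0.50 at matched depth without cycling cells (adjusted p = 2.23e-04). A UMI of Il21 was held by 44.2% of Tfh-marked, 44.6% of Th2-marked and 12.7% of B cells, so the shares of both sides were above that of B cells. These shares were not taken at equal depth. After the thinning used for Il4 they were 38.3%, 30.6% and 9.89%, with 115, 19 and 63 shallower cells left out. The thinned Tfh-marked share was above the Th2-marked share in each mouse, the opposite direction to the matched-depth difference. The cause of this was not tested. Pdcd1 (chr1:94038305-94052553), which encodes the PD-1 receptor used to sort Tfh cells, was at 132, 123 and 167 CPM against 116, 107 and 92.0 CPM (log2 difference 0.44, SE 0.12, adjusted p = 0.00798). At matched depth its difference was -0.15 (adjusted p = 0.512), and in all cells it was 0.20 without mouse 3 (adjusted p = 0.201) and had an adjusted p of 0.0558 with DESeq2.

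Il2 did not pass, at 164, 226 and 181 CPM against 182, 152 and 209 CPM (log2 difference 0.07, SE 0.13, adjusted p = 0.68; -0.20 at matched depth, adjusted p = 0.299). Without cycling cells Il2 was called higher in Th2-marked cells (-0.81, adjusted p = 2.12e-06), as it was at matched depth without cycling cells (-0.85, adjusted p = 1.15e-07) and with 2 marker UMIs and 0 Gata3 on the Tfh-marked side (-0.49, adjusted p = 0.0119). Ifng, the type 1 cytokine, was at 37.6, 46.0 and 63.7 CPM against 40.8, 32.0 and 35.6 CPM and overlapped (log2 difference 0.46, adjusted p = 0.026). It was held by 5.62% and 5.26% of cells with 152 UMIs in 1 cell, its difference was -0.02 at matched depth, and the call was lost without mouse 2 (0.43, adjusted p = 0.101) or mouse 3 (0.21, adjusted p = 0.389). Il9 had 0 counts on both sides. Cd4 itself (chr6:124864692-124888221) was at 220, 178 and 231 CPM against 171, 163 and 167 CPM (log2 difference 0.33, adjusted p = 0.0089), while at matched depth the difference was -0.39 (adjusted p = 0.00769), and without mouse 3 it was 0.25 (adjusted p = 0.0625).

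**Figure D2:**
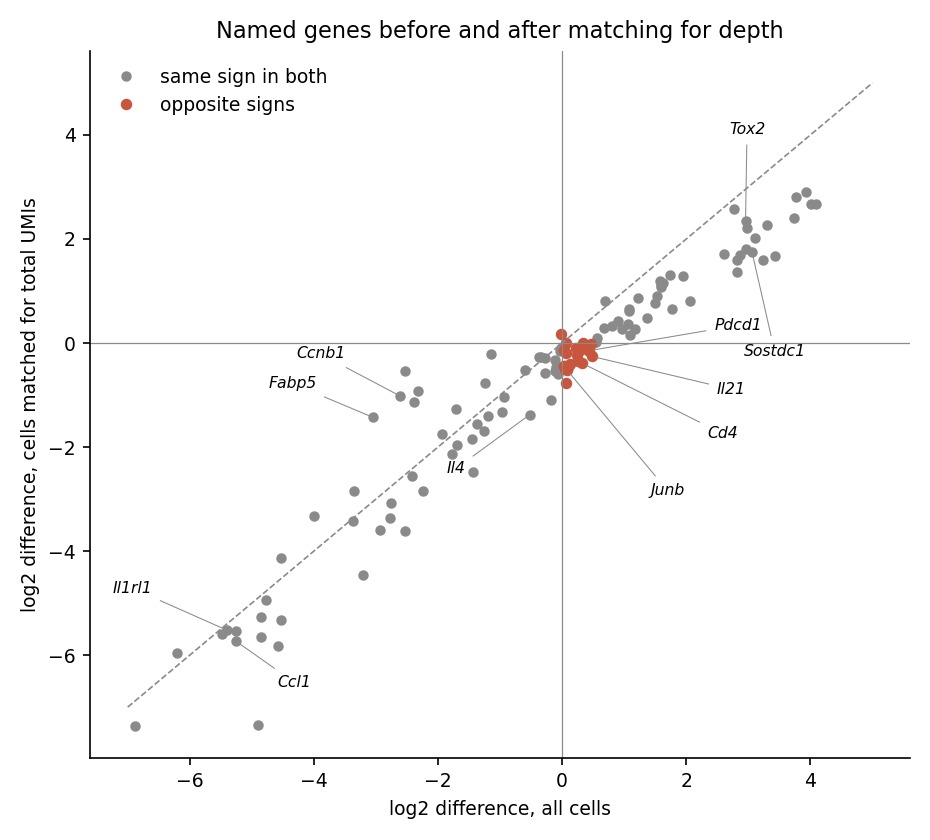
Log2 difference (Tfh-marked minus Th2-marked) of 117 named genes with counts on both sides, in all cells (horizontal) and in cells matched for total UMIs (vertical), with the dashed line of equal values. 20 genes have opposite signs, among them Il21, Pdcd1, Cd4 and Junb, and they lie near 0, while Tox2, Sostdc1, Ccl1 and Il1rl1 stay far from it.

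Gene lists described how wide each pattern was. Of 25 Tfh genes tested, 23 were higher in Tfh-marked cells, Batf was higher in Th2-marked cells and Irf4 did not pass (median 1.47). At matched depth 15 remained higher in Tfh-marked cells, among them Cd200, Tox, Tox2, Tcf7, Id3, Ascl2 and Slamf6, and 6 were higher in Th2-marked cells (Icos, Maf, Cd40lg, Tnfsf8, Batf and Irf4), with a median of 0.75. The type 2 effector list was one-sided in both. Of 23 tested, 17 were higher in Th2-marked cells and 0 in Tfh-marked cells, and Il17rb, Ccr4, Nfil3, Tnfsf11, Stat6 and Il4ra did not pass (median -1.87). At matched depth the counts were 18 and 0 of 21 (median -2.52).

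The tissue effector list holds genes of adhesion, the cytoskeleton and homing to inflamed tissue. Of 21 tested, 19 were higher in Th2-marked cells (median -2.09), Itgal was higher in Tfh-marked cells and S100a11 did not pass, and at matched depth the counts were 19 and 1 of 20 (median -1.81). Lgals3, which encodes the lectin galectin-3, was at 21.1, 10.8 and 15.7 CPM in Tfh-marked and 319, 190 and 250 CPM in Th2-marked cells (log2 difference -3.99, SE 0.13, adjusted p = 3.47e-12; -3.33 at matched depth). The 13 lymph node positioning genes went the other way in all cells, 9 higher in Tfh-marked and 3 (S1pr1, Rgs1 and Rgs2) in Th2-marked cells with a median of 0.66. At matched depth 1 of them, Cxcr4, was higher in Tfh-marked cells, the same number as before was higher in Th2-marked cells, and the median was 0.05. Rgs1, a brake on chemokine receptor signals, was at 52.1, 69.7 and 66.6 CPM against 322, 209 and 74.8 CPM (log2 difference -1.43, adjusted p = 3.72e-04; -2.48 at matched depth).

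Of 40 transcription regulators, 22 were higher in Tfh-marked cells (among them Tcf7, Lef1, Tox, Tox2, Id3, Ascl2, Bach2 and Foxo1), 12 in Th2-marked cells (among them Id2, Prdm1, Runx3, Zeb2, Bhlhe40, Rora, Rbpj and Epas1) and 6 did not pass (median 0.54). At matched depth the counts were 12 and 15 of 39 (median -0.13), and Maf, which was higher in Tfh-marked cells before, was then higher in Th2-marked cells. Lef1, a partner of TCF1, was at 115, 95.4 and 104 CPM against 32.8, 33.1 and 38.8 CPM (log2 difference 1.58, adjusted p = 2.93e-08; 1.20 at matched depth). Id2, an inhibitor of E proteins, was at 81.8, 72.4 and 67.8 CPM against 270, 260 and 198 CPM (log2 difference -1.70, adjusted p = 3.04e-09; -1.96 at matched depth). The 12 naive and recirculation genes gave 6 higher in Tfh-marked and 3 in Th2-marked cells (Il7r, S1pr1 and Igfbp4), with a median of 0.59, and 3 and 2 of 11 at matched depth.

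**Figure D3:**
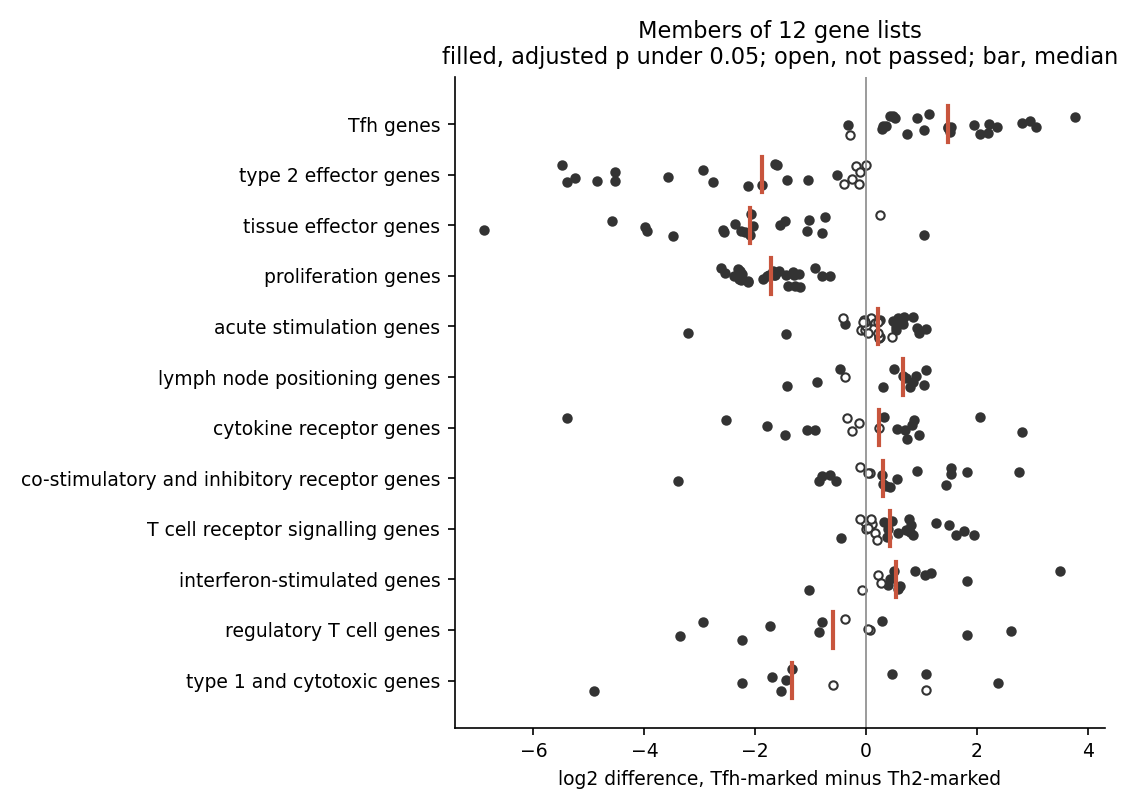
Log2 difference (Tfh-marked minus Th2-marked, all cells) of each tested member of 12 gene lists, filled where the adjusted p was under 0.05 and open where it was not, with the list's median as a bar. Csf2, with 0 counts on one side, is not drawn. The Tfh list lies to the right of 0 with a median of 1.47, and the type 2 effector, tissue effector and proliferation lists lie to the left.

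Of 24 T cell receptor signalling genes, 15 were higher in Tfh-marked cells and 1, Sla, in Th2-marked cells (median 0.44), against 7 and 4 at matched depth (median 0.12). Co-stimulatory and inhibitory receptors gave 11 and 5 of 19 (median 0.31), and at matched depth 4 and 9 of 17 (median -0.30), where Btla, Cd160, Cd27 and Cd200 were the 4. The 19 cytokine receptor genes gave 9 and 6 (median 0.23), and 2 (Il6ra and Il6st) and 5 of 18 at matched depth. TNF family ligands gave 7 and 1 of 11, and 2 (Lta and Ltb, which encode lymphotoxins) and 6 of 10 at matched depth. Of 8 genes of CD4 T cell identity, 7 were higher in Tfh-marked cells and 0 in the others, and 2 and 2 at matched depth.

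The genes that acute stimulation induces are of interest because all cells had met PMA and ionomycin. Of 32 tested, 13 were higher in Tfh-marked cells and 3 (Nfkbia, Dusp5 and Ier3) in Th2-marked cells, and 16 did not pass (median 0.22). At matched depth the balance turned, with 3 (Fosb, Dusp4 and Rel) higher in Tfh-marked and 19 in Th2-marked cells (median -0.35). Junb was at 1995, 1982 and 1652 CPM in Tfh-marked and 2079, 1881 and 1406 CPM in Th2-marked cells (log2 difference 0.08, adjusted p = 0.423; -0.53 at matched depth, adjusted p = 3.02e-08). Fosb was at 1153, 1059 and 911 CPM against 626, 478 and 503 CPM and kept its direction (log2 difference 0.96, adjusted p = 2.19e-07; 0.28 at matched depth, adjusted p = 0.00699). Ier3 was at 3.96, 18.3 and 26.9 CPM against 259, 200 and 93.6 CPM (log2 difference -3.20, adjusted p = 1.44e-06; -4.45 at matched depth).

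All 28 proliferation genes were higher in Th2-marked cells (median -1.71), the side on which 49.9% of cells were cycling. At matched depth 11 were higher in Th2-marked and 3 (Pcna, Mcm6 and Mcm7) in Tfh-marked cells (median -0.27). Ccnb1, the mitotic cyclin B1, was at 23.1, 21.7 and 23.6 CPM against 122, 140 and 154 CPM (log2 difference -2.61, adjusted p = 3.38e-10; -1.02 at matched depth). Glycolysis and hypoxia genes gave 4 higher in Tfh-marked and 10 in Th2-marked cells of 20 (median -0.34), then 4 and 3 of 19 (median -0.01). Sterol and fatty acid genes gave 2 and 8 of 18 (median -0.47), then 1 and 4 of 17 (median -0.06). Fabp5, a carrier of fatty acids, was at 35.0, 47.4 and 37.2 CPM in Tfh-marked and 282, 409 and 304 CPM in Th2-marked cells (log2 difference -3.05, SE 0.11, adjusted p = 8.07e-12; -1.43 at matched depth).

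Lists of other helper programmes were mixed. Of 12 regulatory T cell genes, 3 (Ikzf2, Ctla4 and Tigit) were higher in Tfh-marked and 6 (Il2ra, Tnfrsf18, Tnfrsf4, Capg, Itgae and Il10) in Th2-marked cells (median -0.59), and at matched depth 1 and 7 of 9, where Ctla4 had changed sides. Type 1 and cytotoxic genes gave 3 (Ifng, Cxcr3 and Xcl1) and 6 (Ccl3, Nkg7, Gzmb, Runx3, Il18rap and Id2) of 11 (median -1.33), and 0 and 5 of 8 at matched depth. Of 5 type 17 genes tested, 3 (Rora, Il17a and Ahr) were higher in Th2-marked cells (median -0.96), and 2 (Rora and Ahr) of 3 at matched depth (median -1.32). Interferon-stimulated genes gave 10 higher in Tfh-marked and 1, Bst2, in Th2-marked cells of 14 (median 0.54), then 2 and 3 of 12 (median -0.05). B cell transcripts did not move together, since Ighm was higher in Tfh-marked cells (160, 197 and 275 against 63.2, 67.7 and 76.4 CPM, log2 difference 1.60) and Cd74 in Th2-marked cells (45.5, 42.6 and 101 against 176, 374 and 218 CPM, log2 difference -1.93, adjusted p = 4.54e-06; -1.76 at matched depth).

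Cells just inside and outside the thresholds are described without a test, since the thresholds chose them, with CPM of plain totals as mean ± SD over 3 mice. Tox2 was at 151 ± 13.3 CPM in cells marked by Cxcr5 only (274 cells), 102 ± 18 in those marked by Bcl6 only (297) and 214 ± 26.8 in those with both genes (158). It was at 102 ± 25.8 CPM in cells with a Tfh marker and 2 Gata3 UMIs (139 cells), just outside the rule, and at 43.7 ± 10.8 in cells that carried both a Tfh marker and at least 3 Gata3 UMIs (199). Among Th2-marked cells it was at 33.2 ± 20.7 CPM where Gata3 had exactly 3 UMIs (165 cells). In the 1501 cells with no Tfh marker and 0 or 1 Gata3 UMI, the largest class outside both sides, Tox2 was at 63.6 ± 3.60 CPM and Ccl1 at 208 ± 43.9 CPM, between the values of the sides for both genes.

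Il13, which may or may not be present on the Th2-marked side, divided it. The 477 Th2-marked cells with Il13 had Plac8 at 316 ± 173 CPM, and the 265 without it at 50.6 ± 32.0 CPM. Il5 was at 60.9 ± 41.8 CPM in the first and at 0 counts in the second. Ccl1 was at 1566 ± 192 against 666 ± 291 CPM and Sostdc1, a Tfh-side gene, at 6.37 ± 7.52 against 74.3 ± 13.6 CPM. Il21 was also lower with Il13, at 149 ± 37.8 CPM against 228 ± 43.7 without it. It was at 239 ± 46.9 CPM in cells with a Tfh marker and at least 3 Gata3 UMIs. Depth also differed between the 2 Th2-marked classes, with medians of 15229 and 8571 UMIs, and the cycling share was 59.5% against 32.5%.

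**Figure D4:**
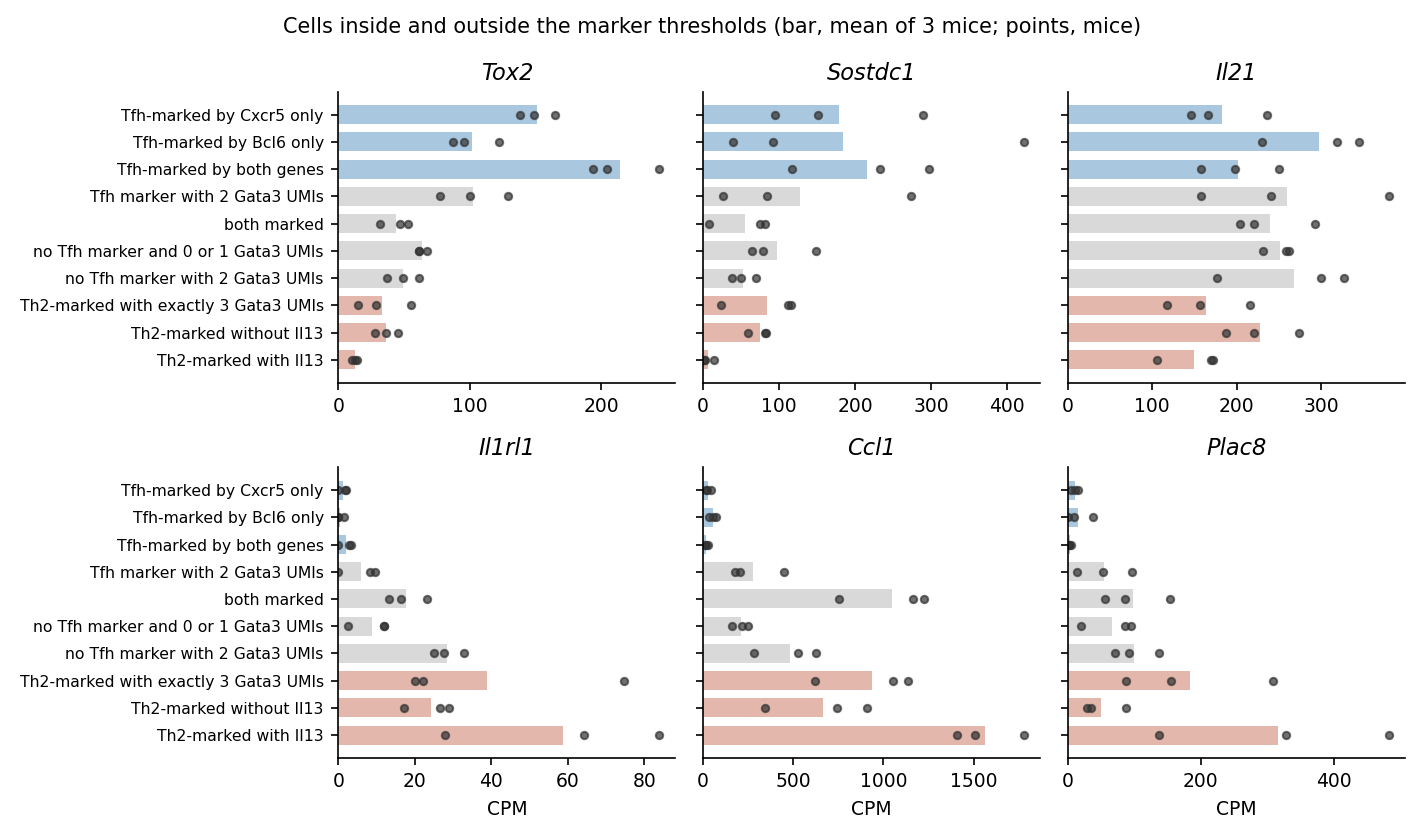
Mean CPM of 6 genes in 10 classes of cells inside and outside the marker thresholds (bars, mean of 3 mice; points, mice; top 3 bars, Tfh-marked; bottom 3 bars, Th2-marked, where classes overlap; middle, neither side). Tox2 is at 214 CPM in cells with both Tfh genes and at 12.3 CPM in Th2-marked cells with Il13. Ccl1 is higher in Th2-marked cells with Il13 than in those without it. Cells with a Tfh marker and at least 3 Gata3 UMIs, outside both sides, also exceed Th2-marked cells without Il13 in Ccl1. Il21 has no steady order over the classes but is lower with Il13 than without it on the Th2-marked side.

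The same rule was applied to the Tfh sort, in mice that did not take part in the choice, as a repeat in a different gate. It gave 825 Tfh-marked cells (274, 345 and 206 in its mice 1, 2 and 3) and only 66 Th2-marked cells (28, 25 and 13), with median depths of 2988 and 5408.5 UMIs. A Foxp3 UMI was held by 2.30% of these Tfh-marked and 9.09% of these Th2-marked cells, and 12.6% and 37.9% were cycling. The part of Foxp3-positive and cycling cells in the differences of the Tfh sort was not tested. This sort had been gated on the CXCR5 and PD-1 proteins, so its Th2-marked cells are cells of that gate without a Cxcr5 or Bcl6 UMI, and strain, chemistry and sequencing run differ from the reporter sort. Of 5306 tested genes 86 (1.62%) were higher in Tfh-marked and 148 (2.79%) in Th2-marked cells. Of these 234 genes 210 were also called in the reporter sort (89.7% of the Tfh-sort calls and 4.40% of the reporter-sort calls), 204 in the same direction and 6 in the opposite one. Against the matched-depth calls of the reporter sort 162 were shared (69.2% of the Tfh-sort calls and 12.6% of the 1290 reporter-sort calls), 150 in the same direction and 12 in the opposite one, among them Fos, Junb, Egr2, Zfp36, Cd40lg and Cd74. Both overlaps are to be read against the calls over all tested reporter-sort genes. These were 25.7% higher in Tfh-marked and 25.4% in Th2-marked cells, and 7.35% and 9.77% at matched depth. The 6 opposite in all cells, which were seen before they were named, were Cd74, H2-Aa, H2-Ab1, Ifng, Errfi1 and Gimap4.

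Genes with the largest reporter-sort differences on the Th2 side were too low to test in this sort in most cases. The 4 that could be tested were all called in the same direction. A gene near 0 on 1 side could pass the count filter only through the other side. For such genes, on either side, the filter itself favoured the shared direction, which is therefore no separate support. Ccl1 was at 62.9 ± 34.8 CPM in Tfh-marked and 3218 ± 841 CPM in Th2-marked cells of the Tfh sort (SD, n = 3; log2 difference -5.76, SE 0.21, edgeR adjusted p = 2.54e-17). Il3 was at 5.62 ± 9.08 against 775 ± 550 CPM (log2 difference -7.15, edgeR adjusted p = 9.09e-15), and Il10 at 108 ± 32.4 against 224 ± 187 CPM (-1.07, edgeR adjusted p = 0.00555). On the Tfh side 12 of the 15 genes could be tested, all 12 had the same direction and 5 were called. Il6st was at 66.1 ± 8.40 against 12.3 ± 7.02 CPM (log2 difference 2.30, edgeR adjusted p = 0.00275) and Tox2 at 158 ± 2.47 against 90.2 ± 33.1 CPM (0.85, edgeR adjusted p = 0.0468). Sostdc1 did not pass, at 138 ± 16.6 against 117 ± 68.1 CPM (0.38, edgeR adjusted p = 0.597). Ntrk3 was at 28.9 ± 9.82 CPM in Tfh-marked cells and had 0 counts in the 66 Th2-marked cells (edgeR adjusted p = 0.00487).

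Il4 was plentiful in this sort, whose labels name no reporter allele. It was at 732 ± 115 CPM in Tfh-marked and 1532 ± 350 CPM in Th2-marked cells (log2 difference -1.08, SE 0.11, edgeR adjusted p = 4.92e-08), the same direction as in the reporter sort. Il21 was at 360 ± 16.9 against 243 ± 94.9 CPM (0.55, edgeR adjusted p = 0.084) and Pdcd1 at 215 ± 21.4 against 241 ± 55.8 CPM (-0.18, edgeR adjusted p = 0.701), so neither passed. Levels were not compared between the sorts by a test.

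**Figure D5:**
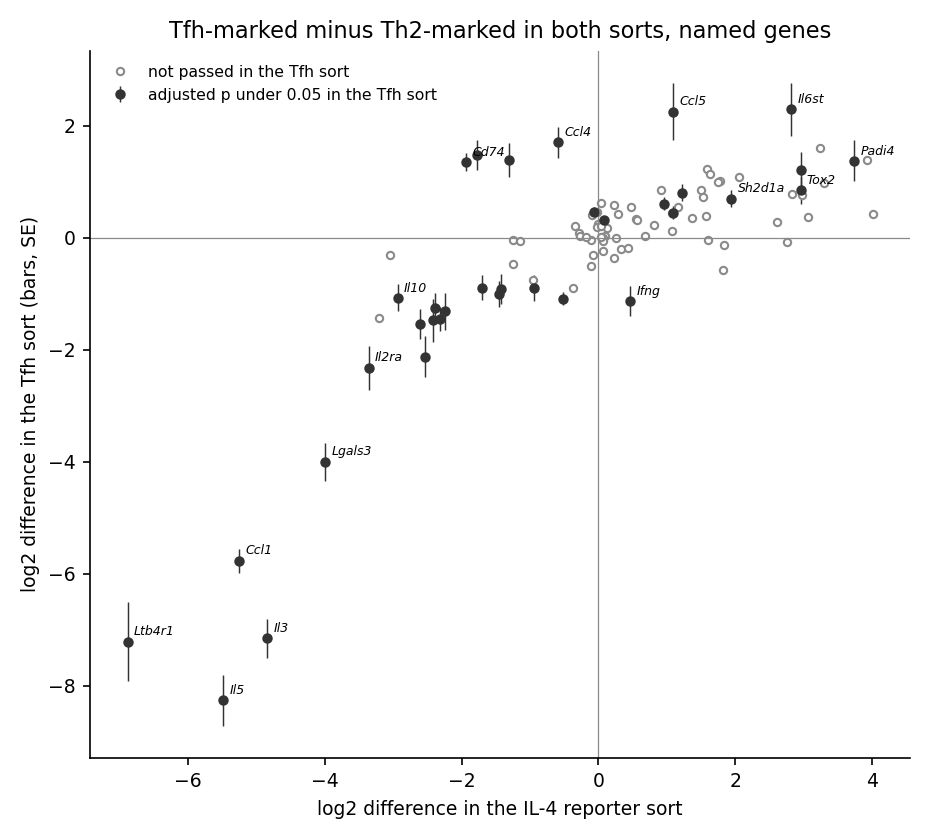
Log2 difference (Tfh-marked minus Th2-marked) of 97 named genes in the IL-4 reporter sort (horizontal) and in the Tfh sort (vertical, bars SE; filled, adjusted p under 0.05 in the Tfh sort). Of 35 named genes called in the Tfh sort 29 have the same sign in both, Ccl1, Il3, Il5 and Ltb4r1 lie lowest, and Cd74, Ccl4 and Ifng are among the exceptions. Ntrk3, with 0 counts on one side, is not drawn.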

How the data were processed

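The members and gene lists were chosen with earlier results of these data known. Single-cell UMI count matrices with hashtag counts were deposited by the authors for both sorts. Per the submitters' processing notes, reads were processed with bcl2fastq 2.18.0.12 and 2.20.0.422 and Cell Ranger 2.2.0 on mm10, while the file header of the reporter sort names Cell Ranger 3.0.2. The labels' protocols aimed at 6000 cells. Both sorts were counted in 1 lane each, so p-values measure the spread between 3 mice of 1 capture.

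Of 7646 deposited barcodes of the reporter sort, cells were kept with 500 genes or more, at most 10% mitochondrial UMIs and 0 Cd79a UMIs (4225 cells). A mouse was given where its hashtag had 10 counts or more and at least 3 times the next (3668 cells; 557, or 13.2%, had none), which also removes doublets of different mice. No other doublet caller was run. The B cells set beside the shares of cells held UMIs of Cd79a and Cd79b. No barcode was shared between the sorts (0). Raw counts were summed per mouse and side (6 sums) and tested with edgeR 4.0.16 (R 4.3.3; TMM, filterByExpr with a minimum count of 10, quasi-likelihood, mouse as block, 2 residual degrees of freedom, Benjamini-Hochberg). Both sides came from the same mice, which is the pairing, and deviations of paired sums correlated at 0.07, 0.06 and 0.18. CPM are scaled by TMM except where plain totals are named. SE is the log2 difference over the square root of F. Depth was matched in 10 bins of total UMIs within each mouse (seed 20). A Wilson or Poisson interval covers counting error only.

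Genes were named by rule: the 15 largest differences in each direction among genes called, in 1 direction in all 3 mice and at 20 CPM or more; 11 fixed genes (Il4, Il5, Il3, Il21, Il2, Ifng, Il10, Il9, Pdcd1, Foxp3 and Cd4); and from each of 28 lists up to 4 that passed and 2 that did not. The label-check markers, and members listed beside a count, fall outside that rule and were seen before they were named. In data simulated on the reporter sums, 79% of 100 genes changed 2-fold and 100% of 100 changed 4-fold were called (9222 genes), and for the Tfh sort 35.1% of 94 and 89.7% of 97 (5086 genes). Alternatives were DESeq2 1.42.0, other filters, other marker thresholds and left-out mice. Python 3.11.15, numpy 2.4.6, scipy 1.17.1 and pandas 2.3.3 were used.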

Additional observations from a re-analysis of the deposited data

Results flagged for a closer look

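Cd74 and H2-Ab1, genes of antigen presentation through MHC class II that B cells express strongly, went in opposite directions in the sorts. In the Tfh sort Cd74 was higher in Tfh-marked cells by 1.35 on the log2 scale (529 ± 129 against 201 ± 35.8 CPM, SD, n = 3 mice) and H2-Ab1 by 1.48 (167 ± 48.6 against 57.7 ± 12.7 CPM), each in 3 of 3 mice. In the reporter sort both were higher in Th2-marked cells in 3 of 3 mice (log2 differences -1.93 and -1.77), although in mouse 3 H2-Ab1 was at 50.1 against 56.2 CPM. The H2-Ab1 difference in the reporter sort was 0.32 without cycling cells (adjusted p = 0.539), -0.92 without mouse 2 and -4.15 without mouse 3 (edgeR). The difference between the sorts was not tested, and the part of RNA from B cells in it was not tested.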

How the results depend on the processing

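The number of genes called between the sides of the reporter sort was 4774. It was 2912 with DESeq2, 1785 without cycling cells, 1992 with a mitochondrial limit of 5%, 1539 against Th2-marked cells without Il13, 1386 with Il4 in both sides (2 mice), 1290 at matched depth and 914 at matched depth without cycling cells, an alternative added after seeing the data. The block changed little (no replicate block: 4645 genes, and 206 against 234 in the Tfh sort), and leaving out 1 mouse gave 3923 to 4450. In the Tfh sort, leaving out 1 mouse gave 88 to 116 and matched depth 88. Of 119 named genes tested at matched depth, 9 lost the call and 6 gained one in the same direction. The sign was opposite for 20, of which 11 were called in at least 1 of the fits and 9 in neither. DESeq2 lost the call of 15 named genes. Results for genes that an alternative itself selected on were left out. These log2 differences changed sign with a call before or after. At matched depth: Cd3g -0.46, Cd4 -0.39, Egr1 -0.40, Ifng -0.0207, Il21 -0.26, Il2rg -0.49, Junb -0.53, Pdcd1 -0.15, S100a11 -0.35, Tnfrsf9 -0.77 and Tnfsf9 -0.45. Without cycling cells: Cd3g -0.48, Cd4 -0.29, Egr1 -0.40, H2-Ab1 0.32, Il2 -0.81, Il21 -0.45, Il2rg -0.37, Junb -0.55, S100a11 -0.32, Tnfrsf9 -0.87 and Tnfsf9 -0.83. With both: Cd3g -0.53, Cd4 -0.48, Cd6 -0.39, Egr1 -0.48, Il2 -0.85, Il21 -0.50, Il2rg -0.48, Junb -0.61, Pdcd1 -0.40, Pfkp 0.41, S100a11 -0.40 and Tnfsf9 -0.66. Against Th2-marked cells without Il13: Ccr7 -0.26, Cd4 -0.0101, Rora 0.72 and Satb1 -0.42. With Il4 in both sides: Cd4 -0.0019. With 2 marker UMIs and 0 Gata3: Cd8b1 -0.59, Ifng -0.38 and Il2 -0.49. With a mitochondrial limit of 5%: Cd8b1 -0.13, H2-Aa 0.39, Ifng -0.53 and Tnfrsf9 -1.24. With Cxcr5 alone: Penk -2.53. Ccl5 ran from -1.22 to 1.16 when 1 mouse was left out. The cause of these changes was not tested. Matched depth and the Tfh sort used fewer cells and tested fewer genes.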

Other observations

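Of 81 ribosomal protein genes 21 were higher in Tfh-marked and 9 in Th2-marked cells, and 51 did not pass. At matched depth the counts were 30, 1 and 50, with a median log2 difference of 0.14. Of the 13 genes encoded by mitochondrial DNA 11 were higher in Tfh-marked cells and 0 in Th2-marked cells, and 6 and 0 at matched depth. Before matching, the median share of mitochondrial UMIs was 6.06% in Tfh-marked and 4.59% in Th2-marked cells. Cells with a Tfh marker and at least 3 Gata3 UMIs, which belong to neither side, were 199 or 5.43% of the cells with a mouse. They had Ccl1 at 1046 ± 256 CPM and Tox2 at 43.7 ± 10.8 CPM, and 45.2% of them were cycling at a median of 12388 UMIs. Whether these are single cells or pairs of cells from 1 mouse was not tested.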
